A study of Mus musculus with 18 samples.

Results

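Livers were compared between germ-free Swiss Webster female mice that received the gut microbiota of penicillin-treated females and those that received the microbiota of untreated females. The comparison holds 6 of the 18 livers of the series, chosen by their labels alone, with 3 mice in each group, and it was read across all genes: 12780 of the 23337 genes in the count table had enough reads to be tested. The recipients of microbiota selected by low-dose penicillin (LDP recipients 2, 5 and 8) and the recipients of control microbiota (control recipients 1, 3 and 7) were colonised at 3 weeks of age, were fed diet D12451 with 45% of its energy from fat, took no antibiotic themselves, and gave their livers at 8 weeks of age. The labels do not give the week in which the recipients' diet began. The donors' experiment used C57BL6J mice that had low-dose penicillin from birth or no antibiotic and the same diet from week 6. Their livers were also taken at 8 weeks of age. The 3 LDP and 3 control females of that experiment serve here as a side comparison that shares no sample with the recipients. The design asks whether the microbiota, moved without the drug, carries a difference in liver transcription with it. Swiss Webster is an outbred stock, the labels name neither cage, litter nor individual donor, and the p-values below therefore measure the spread among these mice only.

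The liver receives portal blood from the gut, and with it bacterial products, bile acids, short-chain fatty acids and plant compounds. Hepatocytes answer such signals largely through nuclear receptors: PPARA controls fatty acid oxidation, CAR and PXR control the enzymes that oxidise and conjugate foreign compounds, and FXR controls bile acid synthesis, while the sterol-regulated factor SREBP2 controls cholesterol synthesis. Bacterial products and cytokines raise the acute phase proteins that hepatocytes secrete.

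Total counts per recipient library lay between 18723235 and 28646168, and 15436 to 15743 genes had at least one read, so the 2 groups overlapped in depth. Albumin took 9.87% to 14.4% of the counts. Marker genes placed the samples as liver: all 15 hepatocyte markers were tested, and their summed level in CPM, read counts scaled to library size, was 180484 to 220705 in control recipients and 217444 to 250925 in LDP recipients. Kupffer cell markers, those of the resident macrophages, summed to 998 to 1257 CPM in controls and 1047 to 1151 CPM in LDP recipients, and those of sinusoidal endothelium to 818 to 846 CPM and 730.3 to 903 CPM. In whole liver, fewer cells of a type and less RNA per cell cannot be told apart. The first principal component, with 31.7% of the variance, did not separate the groups: it set control recipient 7 (23.7) and LDP recipient 8 (22.8) apart from control recipient 1 (-29.5) and control recipient 3 (-14.7), with LDP recipients 2 (-7.25) and 5 (4.94) between them.

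Of the 12780 genes tested with edgeR's quasi-likelihood test, 1 passed a Benjamini-Hochberg adjusted p of 0.05, which is 0.00782% of them, and it was higher in LDP recipients. At an unadjusted p under 0.05 there were 287 genes higher in LDP recipients and 366 lower, together 5.11% of the genes tested. DESeq2 called 28 genes, 24 higher and 4 lower, which is 4.38% of the 639 genes for which its filter on mean counts left an adjusted p. The 12141 genes without one include well-counted genes such as Cyp2c67 (mean 86.1 CPM). DESeq2 sets the cutoff of its filter from the data so as to call the most genes, and the 4.38% depends on that cutoff. Without that filter, a setting chosen after the data were seen, DESeq2 called 18 genes, 13 higher and 5 lower. The genes described first are the called one and the 10 of smallest p in each direction, called or not. Of these 21, DESeq2 with its filter called 6 and left the other 15, AA465934 among them, without an adjusted p; 14 of the 21 are among the 18 called without the filter. In each of the 20 genes that were not called, all LDP recipients lay on one side of all control recipients; over all genes tested this held for 6.13% with the LDP recipients higher and for 5.56% with them lower, together 11.7%, and the rule on small p favours such genes.

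**Figure D1:**
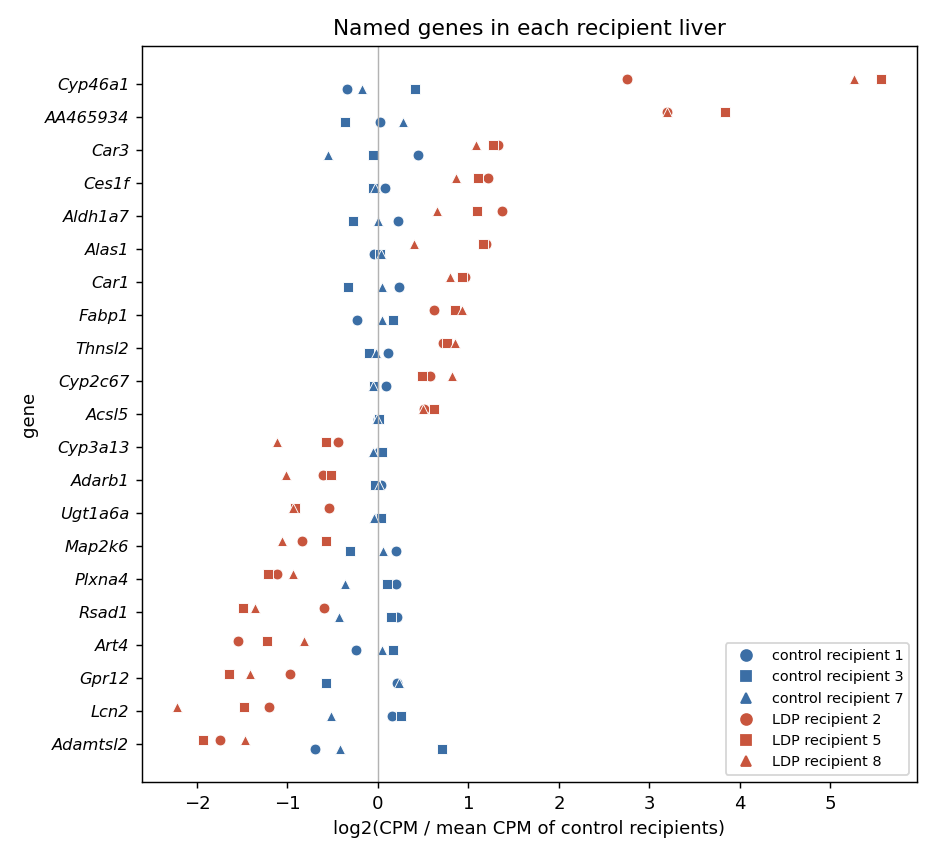
The 21 named genes in each recipient liver. Each point is 1 mouse (blue, control recipients 1, 3 and 7; red, LDP recipients 2, 5 and 8); the x axis is log2 of the mouse's CPM over the mean CPM of the control recipients. In every gene shown the red and blue points do not overlap; Cyp46a1 and AA465934 lie farthest to the right, and LDP recipient 8 lies nearest to the controls for Alas1.

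AA465934, a noncoding transcript that carries the small nucleolar RNA Snord7, was the only gene called by edgeR. It had 7, 6 and 9 reads in control recipients 1, 3 and 7, against 70, 91 and 86 in LDP recipients 2, 5 and 8, or 0.344 ± 0.0740 CPM against 3.73 ± 1.01 CPM (SD, n = 3 each). The 2 groups were far from overlapping, and the level rose 10.8-fold (log2 change 3.41, SE 0.32, edgeR adjusted p = 0.0271). The 6 females of the donors' experiment had 4 to 11 reads each, with and without penicillin, a range that includes that of the control recipients and lies below every LDP recipient. Leaving out single mice kept the log2 change between 3.18 and 3.58, but the adjusted p stayed under 0.05 only without LDP recipient 8 (0.0372) and reached 0.239 without control recipient 1, 0.118 without control recipient 3, 0.0659 without control recipient 7, 0.0584 without LDP recipient 2 and 0.0927 without LDP recipient 5. The gene lies on chromosome 11 at 83291699 to 83294632 of GRCm38, on the plus strand, and Snord7 lies inside it at 83294304 to 83294400, so reads of the small RNA and of its host cannot be told apart in these counts.

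The promoters of 3 genes with very different levels of change are shown because they let the called gene be set beside a known target of PPARA and beside the gene with the highest fold change of those named. Each is the stretch before the annotated start on the plus strand, from RefSeq on GRCm38.p6, 5′ to 3′, and capitals mark the hexamer AGGTCA or its reverse complement TGACCT, the half-site that PPARA and several other nuclear receptors bind. The Fabp1 stretch is shown only up to the earlier start in GENCODE M21; its RefSeq window runs on to 71199878 and holds 2 hexamers, of which 1 is shown. AA465934 (chr11:83291449-83291698), Fabp1 (chr6:71199629-71199826) and Cyp46a1 (chr12:108334066-108334315) read as follows.
AA465934: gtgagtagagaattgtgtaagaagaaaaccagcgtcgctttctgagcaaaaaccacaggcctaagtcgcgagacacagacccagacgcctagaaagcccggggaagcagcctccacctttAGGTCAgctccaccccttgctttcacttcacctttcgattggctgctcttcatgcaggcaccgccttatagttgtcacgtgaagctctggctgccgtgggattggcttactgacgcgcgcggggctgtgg
Fabp1: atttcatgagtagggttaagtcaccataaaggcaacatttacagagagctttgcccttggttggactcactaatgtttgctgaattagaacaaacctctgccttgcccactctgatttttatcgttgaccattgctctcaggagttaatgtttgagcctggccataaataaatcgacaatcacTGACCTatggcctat
Cyp46a1: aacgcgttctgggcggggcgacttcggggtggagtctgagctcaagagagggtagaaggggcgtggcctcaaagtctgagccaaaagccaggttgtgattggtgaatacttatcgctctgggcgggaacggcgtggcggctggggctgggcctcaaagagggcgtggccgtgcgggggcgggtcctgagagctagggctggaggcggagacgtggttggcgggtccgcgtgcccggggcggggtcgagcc
The hexamer, searched on both strands in the 250 bases before the start, was in 4607 of 32851 mouse promoters in the RefSeq table (14.02%). Of the 21 named genes, 17 had a promoter in that table, with 21 promoters between them, and 4 of those promoters, of AA465934, Fabp1, Rsad1 and Map2k6, held it. A match of 6 letters describes the sequence and shows no binding.

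Fabp1, Acsl5 and Thnsl2 were among the 10 genes of smallest p with a higher mean in LDP recipients, and none of them passed edgeR's threshold. Fabp1, the main fatty acid binding protein of hepatocytes, had 1882, 2481 and 2282 CPM in control recipients 1, 3 and 7 and 3409.8, 4006 and 4208 CPM in LDP recipients 2, 5 and 8 (log2 change 0.81, SE 0.15, edgeR adjusted p = 0.777). Its groups did not overlap, and the lowest LDP recipient stood above the highest control. Acsl5, which activates long-chain fatty acids to their CoA esters, had 260.2, 262 and 258 CPM in the controls and 369, 399 and 368 CPM in LDP recipients, a 1.46-fold higher mean with little spread in either group (log2 change 0.54, SE 0.11, edgeR adjusted p = 0.777). Thnsl2, a threonine synthase-like protein, had 38.96, 33.7 and 35.5 CPM against 59.2, 61.01 and 65.03 CPM (log2 change 0.78, SE 0.11, edgeR adjusted p = 0.256). Thnsl2 and Fabp1 are neighbours on chromosome 6, 55.4 kb apart with 0 protein-coding genes between them. DESeq2 with its filter called Fabp1 and Acsl5, and without its filter it called Fabp1, Acsl5 and Thnsl2.

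Cyp46a1, cholesterol 24-hydroxylase, an enzyme best known from neurons that turns cholesterol into an oxysterol, had the highest fold change among the named genes, 30.7. Its levels were 2.59, 4.37 and 2.91 CPM in control recipients 1, 3 and 7 and 22.1, 155 and 126 CPM in LDP recipients 2, 5 and 8. The groups did not overlap, and LDP recipient 2 lay well below the other LDP recipients (mean 101 ± 70.0 CPM, SD, n = 3; log2 change 4.93, SE 0.79, edgeR adjusted p = 0.777). Without LDP recipient 2 the log2 change was 5.41 with an edgeR adjusted p of 0.000231. Without any other single mouse the edgeR adjusted p lay between 0.553 and 0.971. With all 6 mice edgeR gave an adjusted p of 0.226 without its robust option, and DESeq2 without its filter called the gene (1.04e-06), so the call depends on the method as well as on that mouse. The females of the donors' experiment had 28 to 104 reads each, beside 52, 98 and 63 in control recipients 1, 3 and 7, and 4 of the 6 lay below the lowest control recipient.

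**Figure D2:**
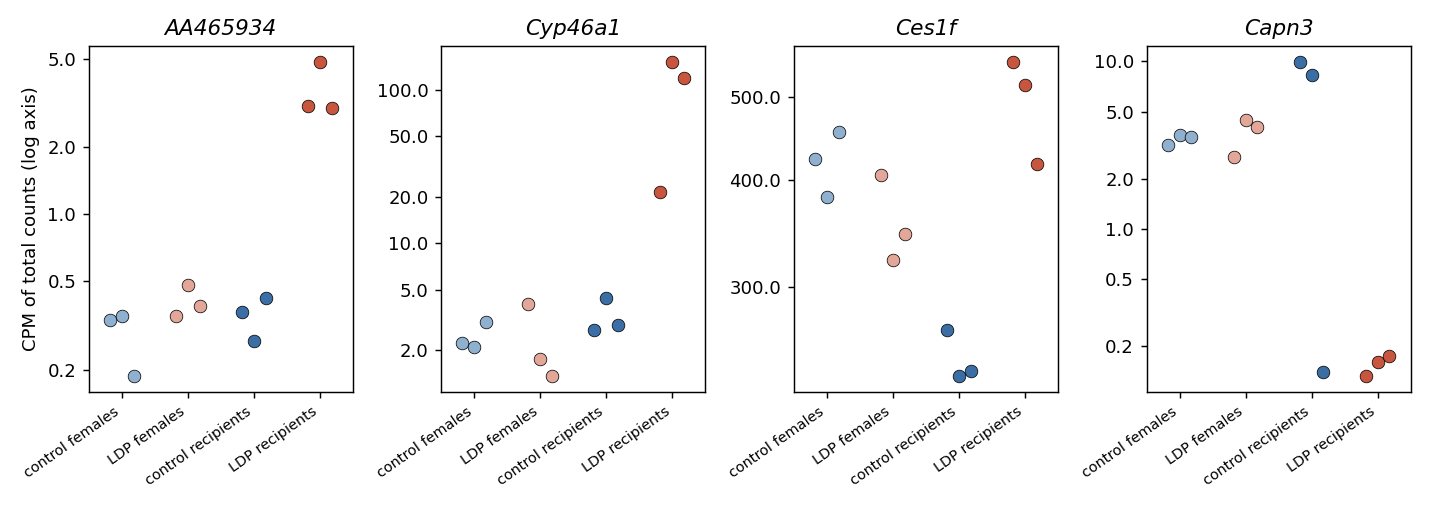
AA465934, Cyp46a1, Ces1f and Capn3 in all 12 female livers, in CPM of each library's total counts on log axes; each point is 1 mouse and the 4 groups stand side by side. For AA465934 and Cyp46a1 the LDP recipients stand above every other mouse; for Ces1f the control recipients are the lowest group; for Capn3 control recipient 7 lies with the LDP recipients.

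Ces1f, a liver carboxylesterase that hydrolyses lipid and drug esters, had 254, 233 and 236 CPM in control recipients 1, 3 and 7 and 560.1, 520.3 and 438 CPM in LDP recipients 2, 5 and 8. The mean was 2.10-fold higher in LDP recipients and the groups did not overlap (log2 change 1.07, SE 0.13, edgeR adjusted p = 0.104). With edgeR it passed the threshold without the filter on low counts (0.0228) and when all 12 female libraries shared the estimate of the spread (0.0110). Of the fits that left out 1 mouse, Ces1f passed only in that without LDP recipient 8 (0.0372). In the others its edgeR adjusted p lay between 0.197 (without control recipient 7) and 0.406 (without control recipient 3). DESeq2 called it with its filter (adjusted p = 4.23e-11) and without (4.23e-10). The females of the donors' experiment had their means in the other order, 422 ± 34.9 CPM in controls and 357 ± 50.6 CPM in LDP females (SD, n = 3 each; log2 change -0.24). Of all genes, Ces1f came nearest to a call in the test of whether the effect of LDP microbiota in recipients differs from that of penicillin in females, with a difference of 1.33 (SE 0.19, edgeR adjusted p = 0.0933).

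The carboxylesterase family, a grouping made after its values were seen, had 13 members tested, 11 of them with a higher mean in LDP recipients, against 48.4% of all genes tested. Its median log2 change was 0.31, beside -0.01 for all genes, and 6 members had an unadjusted p under 0.05 with a higher mean, as had 2.25% of all genes. Ces1e had 106, 113 and 131 CPM in controls and 147, 167 and 183 CPM in LDP recipients, Ces1d had 675, 797 and 997 CPM against 1101, 1313 and 1076 CPM, and Ces3a 852, 936 and 908 CPM against 1417, 1143 and 1101 CPM. None of the 3 overlapped between groups. In the family 8 of 13 lay higher without overlap, beside 6.13% of all genes tested. The Ces1 genes are closely related copies in a cluster on chromosome 8, and since the treatment of reads that match several genes is not given, a part of these counts may be shared. In the donors' experiment 5 of the 13 had a higher mean in LDP females, with a median of -0.02.

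Enzymes that conjugate foreign compounds, in families chosen after their values were seen, had higher means more often than not. Of all genes tested, 48.4% had a higher mean in LDP recipients, and 2.25% had one at an unadjusted p under 0.05. All 16 glutathione S-transferases tested, which attach glutathione to reactive compounds, had a higher mean in LDP recipients (median log2 change 0.31), 7 at an unadjusted p under 0.05, and none was called. Gsta4 had 70.7, 71.4 and 67.5 CPM in controls and 88.3, 93.8 and 113 CPM in LDP recipients, and Gsta3 964, 855 and 1028 CPM against 1205, 1478 and 1267 CPM. Neither overlapped. The UDP-glucuronosyltransferases of families 2 and 3, which attach glucuronic acid, had a higher mean in 9 of 9 (median 0.22; 3 at an unadjusted p under 0.05), whereas the 1a group was split. Ugt1a6a, a phenol-conjugating form induced by the aryl hydrocarbon receptor, had 28.2, 28.8 and 27.4 CPM in controls and 19.4, 14.9 and 14.7 CPM in LDP recipients, the smallest p among genes with a lower mean (log2 change -0.79, SE 0.14, edgeR adjusted p = 0.777). Ugt1a6b was also lower (log2 change -0.61), and Ugt1a9 was higher at 198, 216 and 206 CPM against 297, 325 and 253 CPM (log2 change 0.50). These genes share their last exons on chromosome 1, so only reads in their own first exons tell them apart.

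Of 26 tested targets of CAR and PXR, 20 had a higher mean in LDP recipients (median log2 change 0.11), beside 48.4% of all genes tested. At an unadjusted p under 0.05, 4 were higher, beside 2.25% of all genes, and 1 was lower, beside 2.86%. Alas1, the first enzyme of heme synthesis and a classic target of both receptors, had 427, 446 and 450.2 CPM in controls and 1009.8, 987 and 581 CPM in LDP recipients 2, 5 and 8. LDP recipient 8 lay between the controls and the other LDP recipients (log2 change 0.96, SE 0.20, edgeR adjusted p = 0.846). Without it the edgeR adjusted p was 0.0372, and without any other single mouse it lay between 0.476 and 0.971. Cyp2b13 had 341, 290.0 and 230.3 CPM against 424, 447 and 413 CPM. Cyp3a13 went the other way, at 299, 308 and 285 CPM in controls and 219, 199 and 138 CPM in LDP recipients (log2 change -0.68). In the wider families, chosen after their values were seen, 26 of 34 Cyp2 genes and 4 of 8 Cyp3a genes had a higher mean. Cyp2c67 was the Cyp2 gene of smallest p, at 71.7, 65.6 and 64.9 CPM against 101, 94.6 and 119 CPM (log2 change 0.64, SE 0.12, edgeR adjusted p = 0.777). Cyp2b10 (log2 change -0.49), Cyp2c29 (0.04) and Cyp3a11 (0.15) overlapped between groups.

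A pair of related aldehyde dehydrogenases on chromosome 19 led the genes of retinoid metabolism. Aldh1a7, an aldehyde dehydrogenase, had 25.9, 18.4 and 22.2 CPM in controls and 57.2, 47.4 and 34.8 CPM in LDP recipients (log2 change 1.07, SE 0.20, edgeR adjusted p = 0.777). Its near-copy Aldh1a1, which makes retinoic acid from retinal, had 543, 499.5 and 419 CPM against 883, 1013 and 582 CPM (log2 change 0.76). Reads of the pair may be shared, and both had their lowest LDP value in recipient 8. Of 20 retinoid genes tested, 17 had a higher mean, beside 48.4% of all genes tested, with a median log2 change of 0.18. Of the 17, 3 had an unadjusted p under 0.05, beside 2.25% of all genes.

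Among carbonic anhydrases, which interconvert carbon dioxide and bicarbonate, 2 of the 10 tested stood apart. Car3, abundant in liver and fat, had 1379, 973 and 691 CPM in controls and 2535, 2452 and 2148 CPM in LDP recipients, a 2.35-fold higher mean with no overlap (log2 change 1.23, SE 0.23, edgeR adjusted p = 0.777). Car1 had 7.86, 5.31 and 6.88 CPM against 13.05, 12.8 and 11.6 CPM (log2 change 0.90, SE 0.17, edgeR adjusted p = 0.777). The genes lie 55.1 kb apart on chromosome 3 with 0 protein-coding genes between them. Car3 is also a marker of adipocytes, and the summed adipocyte list was 698 to 1383 CPM in controls and 2157 to 2541 CPM in LDP recipients; of that list Lep, Retn and Plin1 were at 0 in all 6 livers and Car3 made up nearly the whole sum.

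**Figure D3:**
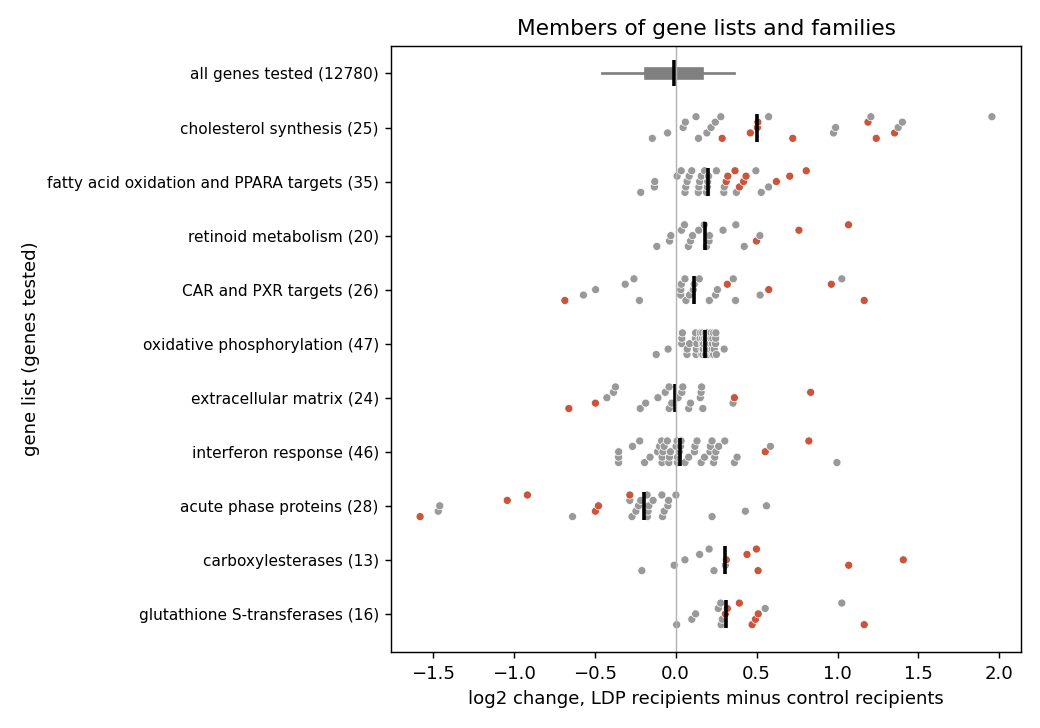
Log2 change (LDP recipients minus control recipients) of every tested member of 8 gene lists and 2 gene families; red points have an unadjusted p under 0.05, black bars are medians, and the top row gives the 5th to 95th percentile (line), the middle 50% (thick bar) and the median of all 12780 genes. Cholesterol synthesis has the highest median of the lists drawn (0.50) and acute phase proteins the lowest (-0.20).

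Cholesterol synthesis genes, the targets of SREBP2, had the highest median log2 change of the pathway lists, 0.50. Of 25 tested, 23 had a higher mean in LDP recipients, beside 48.4% of all genes tested. Of the 23, 8 had an unadjusted p under 0.05, beside 2.25% of all genes, and none was called. Fdps, which makes farnesyl diphosphate, had 4.13, 5.57 and 6.97 CPM in control recipients 1, 3 and 7 and 12.2, 22.5 and 8.20 CPM in LDP recipients 2, 5 and 8 (log2 change 1.35, SE 0.38, edgeR adjusted p = 0.846). Sqle, squalene epoxidase, had 2.09, 1.83 and 4.48 CPM against 8.11, 22.6 and 2.27 CPM, so LDP recipient 8 lay within the controls (log2 change 1.95, SE 0.83, edgeR adjusted p = 0.846). Cyp51, lanosterol demethylase, was likewise highest in LDP recipient 5 with LDP recipient 8 within the controls, at 10.7, 12.1 and 20.6 CPM against 30.2, 68.5 and 14.4 CPM.

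The LDP recipients differed widely among themselves in these genes. LDP recipient 5 was the highest of all 6 mice for 23 of the 25 cholesterol genes, and LDP recipient 8 was at or below the highest control for 16. The mean of the list, on a log2 scale relative to the control recipients, was 0.53, 1.12 and 0.00 in LDP recipients 2, 5 and 8, and -0.11, -0.10 and 0.21 in controls 1, 3 and 7. Without LDP recipient 5 the median log2 change was 0.31 and 3 genes had an unadjusted p under 0.05; without LDP recipient 8 it was 0.58 and 16 did. In the donors' experiment the same 25 genes had a median of 0.01.

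Genes of fatty acid oxidation, mostly targets of PPARA, had a higher mean in LDP recipients in 32 of 35, beside 48.4% of all genes tested. The median log2 change was 0.20, and 9 were higher at an unadjusted p under 0.05, beside 2.25% of all genes. After Fabp1 the smallest p belonged to thiolases of the last step of oxidation. Acaa1b, the peroxisomal form, had 737, 738 and 939.6 CPM in controls and 958, 1348 and 1630.5 CPM in LDP recipients (log2 change 0.70, SE 0.20, edgeR adjusted p = 0.846). Acaa2, the mitochondrial form, had 865, 959 and 1007 CPM against 1067, 1231 and 1351 CPM. Control recipient 7 was the highest control for 31 of the 35 genes, as for 37.7% of all genes, and the highest of all mice for 16. Cyp4a14, a microsomal omega-hydroxylase and strong PPARA target, had 110.2, 149 and 1685 CPM in control recipients 1, 3 and 7 and 327, 1000.3 and 732 CPM in LDP recipients, so its mean hardly differed (log2 change 0.08, SE 1.07, edgeR adjusted p = 0.990). Without control recipient 7 the median of the list was 0.43 and 24 of the 35 had an unadjusted p under 0.05. Without LDP recipient 5 it was 0.17, with 2 higher and 1 lower at that level. The lowest median among fits that left out 1 mouse was 0.13, without control recipient 1.

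**Figure D4:**
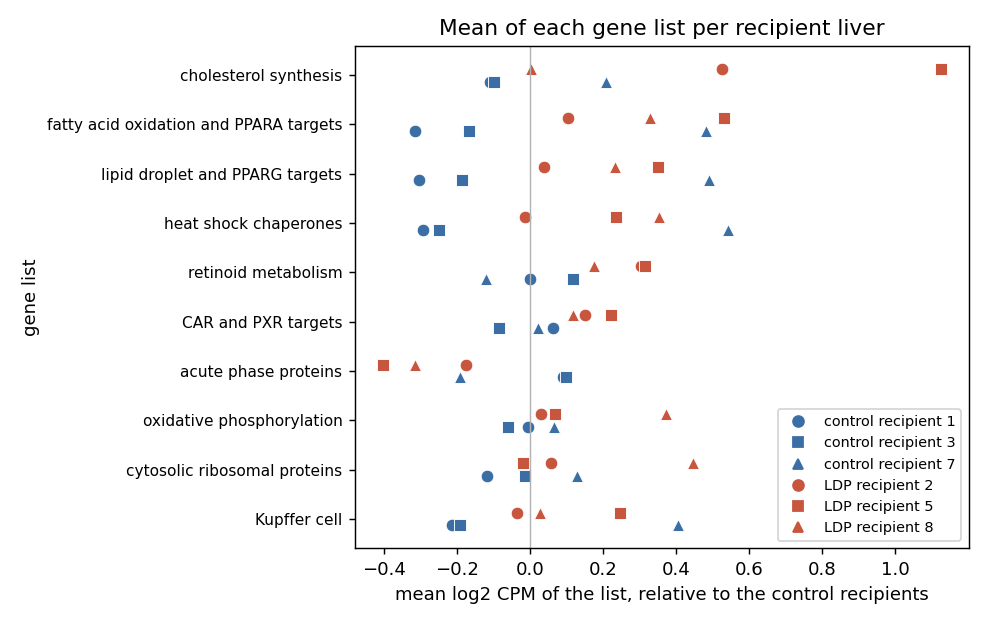
Mean log2 CPM of 10 gene lists in each recipient liver, relative to the mean of the control recipients; blue points are control recipients 1, 3 and 7, red points LDP recipients 2, 5 and 8. Control recipient 7 stands above the other controls for fatty acid oxidation (0.48), lipid droplet genes (0.49), heat shock chaperones (0.54) and Kupffer cell markers (0.40), LDP recipient 5 leads for cholesterol synthesis (1.12), and LDP recipient 8 leads for oxidative phosphorylation (0.37) and ribosomal proteins (0.45).

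Control recipient 7 also had the highest heat shock chaperones of all mice in 14 of 18 genes, and the list's median log2 change went from 0.13 to 0.39 without it. The 17 lipid droplet genes tested had a median of 0.12, and 0.45 without control recipient 7, when 15 had a higher mean in place of 11. The 14 Kupffer cell markers had a median of -0.01 with 7 higher, and 0.14 with all 14 higher without that mouse. Leaving out another mouse moved these medians the other way. Without control recipient 3 the median was -0.04 for heat shock chaperones and -0.10 for Kupffer cell markers. Without LDP recipient 5 it was 0.008 for lipid droplet genes. LDP recipient 8 had the highest level of all mice for 45 of 47 subunits of oxidative phosphorylation and for 53 of 59 cytosolic ribosomal proteins. Those lists had 45 of 47 and 52 of 59 higher means in LDP recipients, beside 48.4% of all genes tested. Their medians were 0.18 and 0.17, and without LDP recipient 8 the medians were 0.06 and 0.02. No gene of either list reached an unadjusted p under 0.05.

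Acute phase proteins had lower means in LDP recipients in 24 of 28, with a median log2 change of -0.20; 51.6% of all genes tested had a lower mean. Of these genes 6 had an unadjusted p under 0.05 with a lower mean, beside 2.86% of all genes. Lcn2, lipocalin 2, which withholds iron from bacteria, had 62.4, 66.7 and 39.05 CPM in control recipients 1, 3 and 7 and 24.3, 20.03 and 12.05 CPM in LDP recipients 2, 5 and 8. The highest LDP value was below the lowest control value (log2 change -1.58, SE 0.30, edgeR adjusted p = 0.846), and DESeq2 without its filter called the gene. Lrg1 had 449, 697 and 335 CPM against 211, 209 and 301 CPM (log2 change -1.04). Saa1, a serum amyloid, had 128, 40.05 and 17.4 CPM against 25.7, 19.2 and 22.4 CPM, so control recipient 1 stood far above all other mice and the groups overlapped. Lcn2 is also a neutrophil granule protein, and the 10 neutrophil markers summed to 3.69 to 4.24 CPM in controls and 3.14 to 4.63 CPM in LDP recipients. Of these markers 6 had at most 10 reads in every recipient, so the sum says little about neutrophils. The part of neutrophils in the difference was not tested. Without control recipient 3 the list had 19 of 28 lower means and a median of -0.14, the lowest in size among fits that left out 1 mouse.

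A further 7 genes of smallest p had a lower mean in LDP recipients. Adarb1, an RNA-editing adenosine deaminase, had 19.9, 19 and 19.6 CPM in controls and 12.8, 13.6 and 9.63 CPM in LDP recipients (log2 change -0.70). Adamtsl2, a secreted matrix protein, had 5.47, 14.4 and 6.6 CPM against 2.65, 2.32 and 3.19 CPM (log2 change -1.70), and the spread lay in the controls. Map2k6, a kinase that activates p38, had 15.7, 11.1 and 14.3 CPM against 7.62, 9.21 and 6.55 CPM (log2 change -0.82). Plxna4, a semaphorin receptor, Art4, an ADP-ribosyltransferase-like surface protein, Gpr12, an orphan receptor, and Rsad1 had log2 changes between -1.30 and -1.07 at means of 1.85 to 9.67 CPM in controls. None passed edgeR's threshold, with adjusted p of 0.846 for each of these 7.

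Bile acid genes showed no common direction: 12 of 22 had a higher mean, beside 48.4% of all genes tested, with a median log2 change of 0.03. Nr1h4, the bile acid receptor FXR, had 101, 115 and 112 CPM in controls and 132, 136 and 133 CPM in LDP recipients (log2 change 0.29), with no overlap. In the bile acid list 3 of 22 genes lay higher without overlap, beside 6.13% of all genes tested. Cyp7a1, the rate-limiting enzyme of bile acid synthesis, had 232, 181 and 32.5 CPM against 89.3, 111 and 79.5 CPM, with control recipient 7 the lowest of all mice (log2 change -0.67, edgeR adjusted p = 0.860). Without that mouse its log2 change was -1.14 (edgeR adjusted p = 0.247), and without control recipient 1 it was -0.20. The enzymes of unsaturated fatty acid synthesis Elovl5 (log2 change 0.46), Fads1 (0.72) and Fads2 (0.47) did not overlap between groups. In the list of fatty acid and triglyceride synthesis 3 of 22 genes lay higher without overlap, beside 6.13% of all genes tested. That list as a whole had 13 of 22 higher means and a median of 0.04. Major urinary proteins, a cluster of near-identical genes, were split, with Mup3 at 1638, 1817 and 1811 CPM against 4546, 2712 and 2848 CPM and Mup9 at 3.98, 11.95 and 16.8 CPM against 1.03, 2.48 and 2.75 CPM. The median of the major urinary protein list was -0.43, and 0.03 without control recipient 3.

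The recipients were set beside the treated females gene by gene. In those females edgeR called 0 of 12914 genes, 582 had an unadjusted p under 0.05 (4.51%), and DESeq2 called 15 (0.123% of those with an adjusted p). Over the 12512 genes tested in both, the log2 changes had a Pearson correlation of -0.07 and a Spearman correlation of -0.12 across genes, which are not independent replicates, and 44.7% had the same sign. Groups did not overlap for 9.12% of the genes tested in females; genes with no overlap in both experiments numbered 62 with opposite and 49 with the same direction. The test of the difference between the effects called 0 of 13295 genes with edgeR (790 at an unadjusted p under 0.05, 5.94%) and 12 with DESeq2 (0.0921%). Strain, germ-free history and drug differ between the experiments and cannot be told apart.

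**Figure D5:**
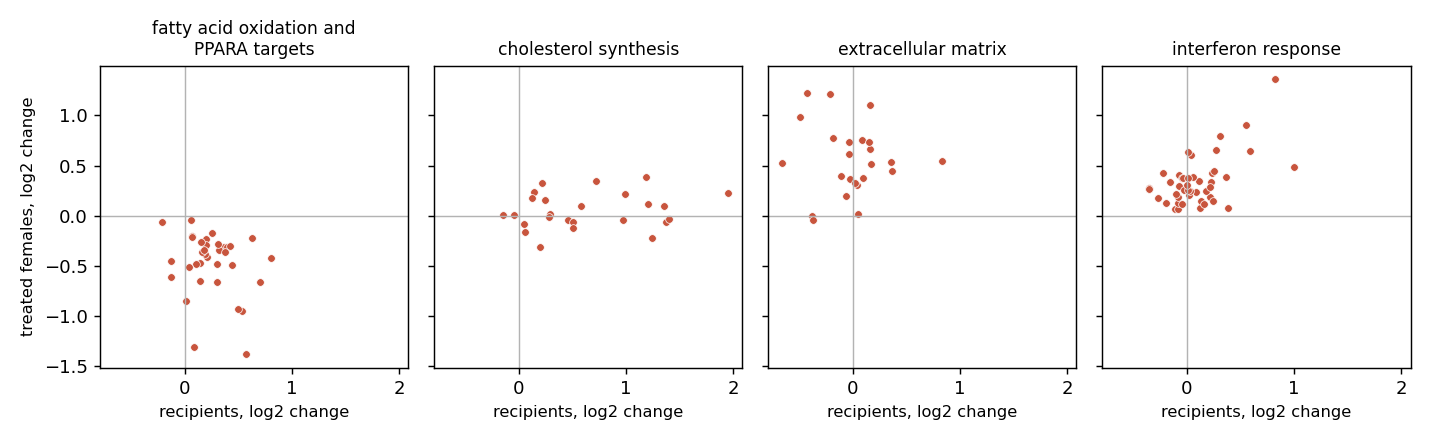
Log2 change in recipients (x axis, LDP minus control microbiota) against that in treated females (y axis, LDP minus control) for the tested members of 4 gene lists; each point is 1 gene. All 35 fatty acid oxidation genes lie below 0 on the y axis and 32 lie above 0 on the x axis; all 46 interferon genes lie above 0 on the y axis and spread around 0 on the x axis.

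The lists below are examples chosen after their values were seen, and no test compared lists between the experiments. Others differed as widely in their counts of higher means, such as oxidative phosphorylation (45 of 47 in recipients, 11 of 47 in females), heat shock chaperones (15 of 18 and 5 of 18), acute phase proteins (4 of 28 and 18 of 28) and pericentral genes (9 of 14 and 1 of 14). Fatty acid oxidation genes had a higher mean in LDP recipients in 32 of 35 and in LDP females in 0 of 35, where 50.9% of all genes had one (median -0.38; 12 lower with an unadjusted p under 0.05, beside 1.82% of all genes). Extracellular matrix genes were evenly split in recipients, 12 higher and 12 lower with a median of -0.0045, and had a higher mean in 22 of 24 in LDP females (median 0.53; 19 with an unadjusted p under 0.05, beside 2.69% of all genes). Col6a3, a chain of collagen VI, had 6.62, 6.11 and 6.32 CPM in control recipients and 4.66, 3.82 and 4.98 CPM in LDP recipients, against a log2 change of 0.99 in females; the difference of effects was -1.47 (SE 0.24, edgeR adjusted p = 0.225). Emp1, an epithelial membrane protein, had 1.94, 2.45 and 2.72 CPM against 1.21, 0.646 and 1.28 CPM, and a difference of -2.40 (SE 0.44, edgeR adjusted p = 0.372). Interferon response genes had a higher mean in 28 of 46 in recipients (median 0.03) and in 46 of 46 in females (median 0.28), and cell cycle genes in 22 of 25 and 3 of 37. The chemokines Cxcl10 and Cxcl9 had higher means in both experiments, with log2 changes of 0.82 and 0.55 in recipients and 1.36 and 0.91 in females.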

How the data were processed

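Per the labels' protocols, TruSeq v2 libraries were prepared from liver RNA isolated with a Qiagen RNeasy column kit. The authors deposited raw read counts per gene symbol, in 1 table for the 12 female livers; build mm10 and the tools featureCounts 1.4.3-p1, HTSeq 0.5.3p9, DESeq and STAR 2.3.0e appear in the submitters' processing notes, without their roles. Strand use and the treatment of reads matching several genes are not given in the sources used here, so overlapping, antisense and near-identical genes are uncertain. The male table was not used here.

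Groups came from the labels. Counts were tested with edgeR 4.0.16 in R 4.3.3: TMM scaling, filterByExpr (minimum count 10, minimum total 15), robust glmQLFit, glmQLFTest and Benjamini-Hochberg adjustment over all genes tested, with a threshold of 0.05. The recipients were fitted alone, the females of the donors' experiment alone, and the difference of effects in all 12 libraries. CPM are counts scaled by the TMM-adjusted library size unless stated otherwise, and values are given per mouse or as mean ± SD. With 3 against 3 mice an exact permutation test of 1 gene cannot go below 0.1. The alternatives were other scaling factors, DESeq2 1.42.0, other filters, fits without the robust option or with a shared spread, and leaving out each mouse. The fit was run on simulated counts, drawn gene by gene with the spread estimated from the recipient libraries. Shifts of many genes together in 1 mouse were not simulated.

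The comparison, its gene lists and their members were chosen with earlier results of these data known, and no list was tested. Named are the called gene, 10 genes per direction by smallest p with a mean of at least 1 CPM, up to 4 members of smallest p per list, and up to 5 per direction for the difference of effects; Sqle, Cyp51, Cyp4a14, Saa1, Cyp7a1, Capn3, the gene families and their members were chosen after their values were seen. Of 839 list entries 833 were in the table, 13 under another symbol. Positions are from GENCODE M21 (GRCm38) and promoters from RefSeq.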

Additional observations from a re-analysis of the deposited data

How the results depend on the processing

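No paired analysis was possible because the 2 recipient groups share no mouse number and the labels name no shared cage, litter or donor. The 1 gene called in recipients became 28 with DESeq2, 18 with DESeq2 without its filter (added after the data were seen), 2 without a filter on low counts and 3 when all 12 libraries shared the spread; it stayed 1 with other scaling factors, a filter on mean CPM and no robust option, and leaving out 1 mouse gave 0 to 4. The 0 calls in treated females became 15 with DESeq2, 14 without its filter and 1 without a filter on low counts, and 0 to 1 without 1 mouse. The 0 calls for the difference of effects became 12 with DESeq2, 11 without its filter, and 0 to 3 without 1 mouse. Without control recipient 7, edgeR called Capn3 (log2 change -5.72) and no longer AA465934; without control recipient 3, Socs2 (1.95). The log2 change turned below 0 for Cyp4a14 without control recipient 1 (-0.42), control recipient 3 (-0.39) or LDP recipient 5 (-0.29; range -0.42 to 2.41), for Col3a1 without control recipient 7 (-0.024 to 0.32) and for Hamp without LDP recipient 8 (-0.022 to 0.77). For these changes the cause was not tested beyond the fewer samples or other genes each fit holds. Of the medians of gene lists, 504 of the values under alternatives moved by less than the spread between mice and 12 by more. That spread was wide beside many of the medians, so the count does not show that their sign or size held. The median of heat shock chaperones, for example, went from 0.13 to -0.04 without control recipient 3, a move smaller than the spread. A library with 0 reads of a gene still allows up to 0.105 to 0.160 CPM in recipients, a limit of counting error only.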

Other observations

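Some genes differed widely between mice of the same recipient group. Among genes with a group mean of at least 1 CPM of total counts, the highest mouse was at least 8-fold above the lowest for 38 of 11862 genes in control recipients (0.320%) and 31 of 11724 in LDP recipients (0.264%), against 12 genes (0.101%) in control females and 18 in LDP females of the donors' experiment; libraries under 3 reads were set to 3. The genes below were chosen after their values were seen.

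Ceacam2, a carcinoembryonic antigen-related adhesion protein, had 3, 6 and 1102 reads in control recipients 1, 3 and 7 and 125, 768 and 4 in LDP recipients 2, 5 and 8. Capn3, a calpain protease, had 191, 183 and 3 reads against 3, 3 and 5, while the 6 females of the donors' experiment had 57 to 102. Gabra3, a GABA receptor subunit, had 41, 61 and 44 reads against 2, 1 and 43. Fbxo44, an F-box protein, had 1, 1 and 1 reads against 26, 21 and 5, with 26 to 42 in the females. Zrsr1, an imprinted splicing factor gene, had 3 reads in LDP recipient 5 and 372 to 590 in the other recipients. Rpl29, a ribosomal protein gene with many processed copies, had 805 reads in LDP recipient 8 and 2 to 11 in the others. Akp3, an intestinal alkaline phosphatase, had 148 reads in control recipient 7 and 0 or 1 in the others. For each of these genes except Fbxo44, which had few reads in every recipient, the mice of at least 1 group fall into high and low levels. In Capn3 and Gabra3 a single mouse, control recipient 7 or LDP recipient 8, has the level of the other group. Gabra3 and Fbxo44 had a mean under 1 CPM in LDP recipients and are not among the genes counted above as 8-fold apart.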
